A study of Rattus norvegicus with 6 samples.

Results

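The genes of MHC class I antigen presentation and of the immunoproteasome were examined in rat vascular smooth muscle cells (VSMCs) cultured with and without empagliflozin. They were B2m, Tap1, Tap2, Tapbp, Psmb8, Psmb9, Psmb10, Psme1, Psme2 and Nlrc5, taken by their symbols from the table of gene expression, which listed all 10 among its 13526 genes. MHC class I molecules display peptides from inside the cell to cytotoxic T cells. The peptides are cut by the proteasome, which under interferon exchanges its catalytic subunits for those of the immunoproteasome, carried into the endoplasmic reticulum by the TAP transporter and loaded onto a heavy chain bound to β2-microglobulin. Most nucleated cells, smooth muscle included, run this pathway at a basal level and raise it under interferon, through IRF and STAT factors and the regulator NLRC5.

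The VSMCs were primary cells from the thoracic aorta of wild-type (WT) male rats, grown out of the medial layer after the adventitia and intima had been stripped. In the OM plus EMPA group, 3 samples received 1 μM empagliflozin, a drug that blocks the renal sodium-glucose cotransporter SGLT2, in osteogenic media (OM), which contain β-GP at 10 mM and CaCl2 at 3.5 mM. In the OM group, 3 samples were kept in the same media without it, so both groups carried the osteogenic stimulus, for 5 days by the labels (the paper's legend gives a shorter time). The sample titles read Pi and Pi+E, and in the same study Pi, inorganic phosphate, names a separate calcifying treatment, whereas the treatment protocol of every sample gives OM. The protocol was followed, and the conflict could not be settled here. Cells in complete media were not analysed here. Whether the 3 samples of a group are separate cultures or separate rats is not stated, so the spread behind the p-values is that of these samples alone and may be technical.

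Expression was given as TPM, which are transcript abundances per transcript length with a common total in all libraries, so the sequencing depth behind a value is unknown. limma was applied to log2(TPM + 1) of the 12564 genes whose mean reached 1 TPM, and a gene was called lower or higher at an adjusted p of at most 0.05. The median of all tested genes lay at -0.05 on this scale, and 65.1% of them had a negative value. Transcripts of the mitochondrial genome took at least 10.3% of TPM in each OM plus EMPA library and at most 9.69% in each OM library. Of 8 smooth muscle markers 7 were listed, and their summed level was 2478 to 2925 TPM in the OM plus EMPA group and 1756 to 2158 TPM in the OM group, mostly from Tagln and Acta2. Of 6 tested, 4 were called higher in limma, Lmod1 (0.90), Cnn1 (0.77), Acta2 (0.70) and Tagln (0.43), while Myh11 (-0.17) and Smtn (0.15) were not called. Leaving out single libraries ended each of these 4 calls, for Cnn1 only without OM plus EMPA replicate 2 (adjusted p = 0.0626). Of 16 leukocyte markers 4 were listed, Ptprc, Adgre1, Csf1r and Itgam not among them, and their sum was 145.6 to 152.1 TPM with empagliflozin and 153.5 to 162.4 TPM without. Of 3 tested, Cd68, a macrophage marker that other cells also express, was lower with empagliflozin (7.49 ± 2.23 TPM against 13.8 ± 1.07 TPM in OM, SD, n = 3 each, limma adjusted p = 0.0378), a call lost in 5 of 12 alternative settings. Not called were Fcer1g (115.3 ± 3.5 TPM with empagliflozin against 115.6 ± 4.1 TPM without, SD, n = 3 each), most of that sum, and Cd14 (-0.15). Of 6 adventitial fibroblast markers 4 were listed, with a sum of 225.3 to 235.3 TPM in the OM plus EMPA group and 203.7 to 228.5 TPM in the OM group. Of 3 tested, Scara5 was higher (0.59, limma adjusted p = 0.00575), Pdgfra was lower (-0.35, 0.0488, lost in 10 of 12 alternative settings) and Pi16 (0.26) was not called. Of 8 endothelial markers only Erg was listed, with 3.39 ± 0.56 TPM in the OM plus EMPA group against 2.79 ± 1.10 TPM in the OM group (SD, n = 3 each). The part of these differences in the results that follow was not tested. In bulk RNA, fewer cells of a type and less RNA per cell cannot be told apart.

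Interferon-responsive genes are known to carry short elements near their starts, so the promoters of the members are shown first. The RefSeq table of promoters, on build GRCr8, held 9 of the 10 members, Nlrc5 being the exception, each as 250 bases before the start and 50 after. Both strands were searched for the core of the interferon-stimulated response element (ISRE), here GAAA, any 2 bases and GAAA again, for TTCNNNGAA, the gamma-activated site (GAS), for the NF-kB consensus and for CCAAT. The ISRE core occurred in 7 of the 9 promoters (B2m, Tap1, Tap2, Tapbp, Psmb8, Psmb10 and Psme2), whereas 1034 of all 27457 promoters of that length held it (3.77%). Psmb9 and Psme1 had no ISRE core in these windows. The NF-kB consensus occurred in 3 of 9 (B2m, Tap1 and Tapbp) and in 7.60% of all promoters, GAS in 1 of 9 (Psmb8) and in 8.68%, and CCAAT in 3 of 9 (B2m, Psmb8 and Psmb9) and in 37.7%. These matches are descriptions of letters, not of bound sites.

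Tap1 and Psmb9 are printed over the whole 250 bases before their starts because they are neighbours transcribed away from each other. Their RefSeq starts lie 457 bases apart, so the far ends of both windows share 44 bases. In the authors' table both gene models overlap instead, so the starts differ. The positions and the lack of a match given here hold for the RefSeq starts only. Tap1 (chr20:4668544-4668793, minus strand) has the ISRE core on its opposite strand, 121 to 112 bases before the start, and the NF-kB consensus 55 to 46 bases before it, both in capitals. Psmb9 (chr20:4668750-4668999, plus strand) has no match in the printed bases, and the ISRE core of Tap1 lies 336 to 345 bases before the Psmb9 start, outside its window.
Tap1: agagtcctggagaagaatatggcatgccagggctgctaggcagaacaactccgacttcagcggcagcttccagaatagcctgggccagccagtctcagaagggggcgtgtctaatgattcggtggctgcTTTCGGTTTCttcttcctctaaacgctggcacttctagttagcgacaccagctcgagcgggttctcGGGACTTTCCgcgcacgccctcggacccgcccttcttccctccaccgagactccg
Psmb9: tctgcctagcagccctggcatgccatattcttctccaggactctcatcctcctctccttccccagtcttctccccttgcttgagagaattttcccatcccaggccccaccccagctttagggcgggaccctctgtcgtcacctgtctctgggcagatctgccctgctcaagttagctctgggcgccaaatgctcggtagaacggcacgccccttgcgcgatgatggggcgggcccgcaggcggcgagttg

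The matches in the other members are shown with the bases around them, each read along the gene's own strand, with the ISRE core and, in B2m, the NF-kB consensus in capitals. B2m (chr3:129549160-129549209, plus strand) holds both within a few bases of each other. Tap2 (chr20:4652308-4652357, minus strand) and Psme2 (chr15:33052775-33052824, minus strand) hold 1 ISRE core each, with the same letters. Tapbp (chr20:4967878-4967923, minus strand) holds 2 overlapping cores, and Psmb10 (chr19:50743293-50743385, minus strand) holds 2 separate ones. The ISRE core of Psmb8 spans the start itself and is not printed.
B2m: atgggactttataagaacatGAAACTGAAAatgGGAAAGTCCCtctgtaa
Tap2: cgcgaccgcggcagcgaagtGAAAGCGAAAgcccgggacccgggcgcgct
Psme2: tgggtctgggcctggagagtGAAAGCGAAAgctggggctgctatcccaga
Tapbp: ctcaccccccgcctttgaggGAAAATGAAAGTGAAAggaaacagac
Psmb10: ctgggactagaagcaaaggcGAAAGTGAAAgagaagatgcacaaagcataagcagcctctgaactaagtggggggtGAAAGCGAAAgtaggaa

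The constitutive subunits that Psmb8, Psmb9 and Psmb10 replace are Psmb5 (chr15:32047380-32047439, minus strand), Psmb6 (chr10:55737828-55737887, plus strand) and Psmb7 (chr3:42827471-42827530, minus strand). Their last 60 bases before the start are shown for contrast, in lower case throughout. The whole windows of these genes and of Psme3 held 0 ISRE cores, and 2 of 11 heavy chain promoters held one.
Psmb5: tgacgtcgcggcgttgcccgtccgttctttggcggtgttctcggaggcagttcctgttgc
Psmb6: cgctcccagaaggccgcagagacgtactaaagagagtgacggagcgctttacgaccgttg
Psmb7: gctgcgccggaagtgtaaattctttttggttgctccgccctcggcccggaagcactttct

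All 10 members were lower with empagliflozin, and in each of them the 3 OM plus EMPA libraries lay below the 3 OM libraries. Of all tested genes 4.86% were called lower and 2.06% higher (0 members, also at an unadjusted p under 0.05), and 22.5% had every OM plus EMPA library below every OM library. The members' median log2 fold change was -0.55, and 9.5% of all tested genes were at or below the smallest of the members' changes, that of Psme1. With the TPM rescaled by median ratios, which put the median of all genes at -0.00057, the members' median was -0.50. With a further threshold of 1.5-fold, 4 members were called lower (Tap1, Psmb9, Nlrc5 and Psmb8), as were 1.46% of all tested genes.

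**Figure D1:**
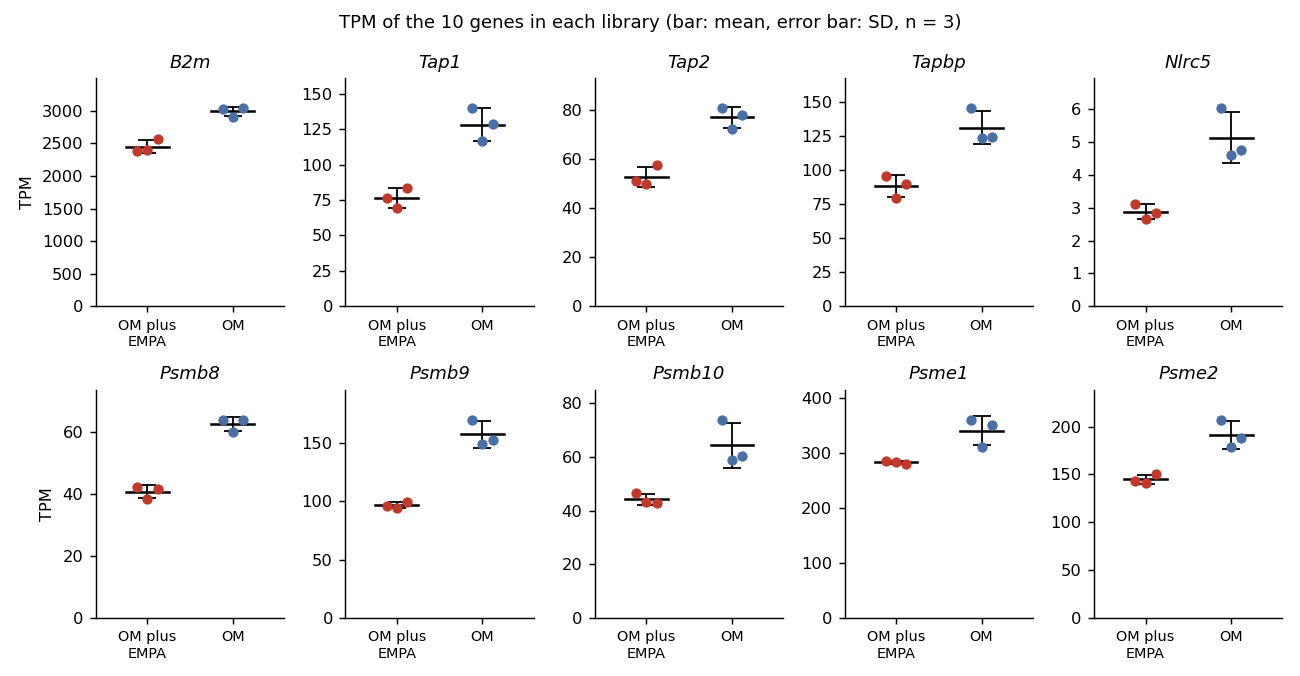
TPM (vertical axes, each from 0) of the 10 genes in every library, OM plus EMPA on the left of each panel and OM on the right, with the mean (bar) and SD (error bar, n = 3). In every panel the red points of the OM plus EMPA group lie below the blue points of the OM group.

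The TAP transporter is formed by Tap1 and Tap2, which pump cytosolic peptides into the endoplasmic reticulum. Tap1 (ENSRNOG00000000457, chromosome 20, 4656263 to 4666901 in the authors' table, for which no source used here names the build) had 76.69, 69.11 and 83.54 TPM in the OM plus EMPA libraries, against 139.81, 116.49 and 128.54 TPM in the OM libraries. The highest OM plus EMPA library was well below the lowest OM library. The log2 fold change was -0.74 ± 0.09 (SE, n = 3 each, limma adjusted p = 0.00459), a mean 40.4% lower. Tap2 (ENSRNOG00000000455, chromosome 20, 4636357 to 4650407) had 50.87, 49.75 and 57.42 TPM with empagliflozin, against 80.61, 72.34 and 77.71 TPM without. Its change was -0.54 ± 0.07 (SE, n = 3 each, limma adjusted p = 0.00561), a mean 31.5% lower. Tap1 over Tap2 was 1.45 ± 0.06 with empagliflozin and 1.67 ± 0.06 in the OM group (SD, n = 3 each, ratios of TPM), and the libraries did not overlap. This ratio was computed after the values were seen and is given without a test.

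Tapbp encodes tapasin, which bridges TAP and the empty class I molecule and helps to select peptides. Tapbp (ENSRNOG00000029500, chromosome 20, 4956937 to 4966181) had 95.49, 79.46 and 89.54 TPM in the OM plus EMPA group, against 145.23, 123.59 and 124.35 TPM in the OM group. Its log2 fold change was -0.57 ± 0.08 (SE, n = 3 each, limma adjusted p = 0.0108). The gene model overlaps that of Rgl2 on the same strand over its whole length, so reads there may be assigned to either. Rgl2 itself was at 20.3 TPM with empagliflozin and 20.7 TPM without.

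B2m encodes β2-microglobulin, the light chain of every classical class I molecule, and was by far the most abundant member. B2m (ENSRNOG00000017123, chromosome 3, 109095729 to 109101766) had 2386.11, 2402.8 and 2563.7 TPM in the OM plus EMPA group, against 3023.47, 2905.89 and 3039.58 TPM in the OM group. The change was small and the libraries of each group lay close together, at -0.29 ± 0.05 on the log2 scale (SE, n = 3 each, limma adjusted p = 0.0215), a mean 18.0% lower. The call for B2m was lost under median-ratio scaling (adjusted p = 0.0522) and without OM plus EMPA replicate 1 (0.0845), OM plus EMPA replicate 2 (0.065), OM replicate 1 (0.0619) or OM replicate 3 (0.0905), with the fold change between -0.32 and -0.23 over 12 alternative settings.

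The immunoproteasome differs from the constitutive proteasome in its catalytic subunits, Psmb8, Psmb9 and Psmb10, which favour peptides that fit class I molecules. Psmb9 (ENSRNOG00000000459, chromosome 20, 4666046 to 4672544) had 96.25, 94.4 and 99.28 TPM with empagliflozin, against 170.24, 149.05 and 152.86 TPM in the OM group. The OM plus EMPA libraries were almost equal to one another and far below the OM libraries. Its log2 fold change was -0.70 ± 0.06 (SE, n = 3 each, limma adjusted p = 0.00187), a mean 38.6% lower. Psmb8 (ENSRNOG00000000456, chromosome 20, 4652159 to 4655743) had 42.06, 38.28 and 41.6 TPM in the OM plus EMPA group, against 63.87, 59.87 and 63.66 TPM in the OM group. It fell by 0.61 on the log2 scale (SE 0.05, n = 3 each, limma adjusted p = 0.00227).

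Psmb10 (ENSRNOG00000019353, chromosome 19, 33827229 to 33833626) had 46.64, 43.25 and 42.94 TPM in the OM plus EMPA group, against 73.96, 58.72 and 60.4 TPM in the OM group, where replicate 1 stood above the other two. Its change was -0.52 ± 0.09 (SE, n = 3 each, limma adjusted p = 0.0154), and the call was lost without OM plus EMPA replicate 2 (adjusted p = 0.0618) or replicate 3 (0.051). In the authors' table the models of Tap1 and Psmb9 overlap by 856 bases on opposite strands, unlike their RefSeq starts, which lie apart. Whether the counting used strand is not stated, so reads of the overlap cannot be told apart between them, and Tap1 and Psmb9 are not fully separate measurements. Their ratio was 0.790 ± 0.055 with empagliflozin and 0.815 ± 0.030 in the OM group (SD, n = 3 each), with overlap.

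Each immunoproteasome subunit takes the place of a constitutive one, Psmb8 of Psmb5, Psmb9 of Psmb6 and Psmb10 of Psmb7. The constitutive genes were not called. Psmb5 had a log2 fold change of 0.06 (95% interval -0.05 to 0.18), Psmb6 of -0.13 (-0.30 to 0.05) and Psmb7 of -0.13 (-0.26 to -0.01, limma adjusted p = 0.178). The ratio within a library does not depend on its scaling. Psmb8 over Psmb5 was 0.213, 0.214 and 0.233 in the OM plus EMPA libraries, against 0.352, 0.347 and 0.363 in the OM libraries. Psmb9 over Psmb6 was 0.586, 0.597 and 0.627 with empagliflozin, against 0.861, 0.925 and 0.910 without. Psmb10 over Psmb7 was 0.259, 0.225 and 0.225 with empagliflozin, against 0.348, 0.305 and 0.283 without. No ratio overlapped between the groups. On the log2 scale the differences were -0.69, -0.57 and -0.40, and for each of the 3 ratios the 2-sided exact permutation test gave p = 0.10 (adjusted 0.10), the smallest p that 3 against 3 samples allow.

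Expressed as a share of the TPM at each catalytic position, Psmb8 made up 18.1 ± 0.75% of the Psmb8 and Psmb5 total with empagliflozin and 26.2 ± 0.44% in the OM group. Psmb9 made up 37.6 ± 0.81% of its pair with empagliflozin and 47.3 ± 0.94% in the OM group. Psmb10 made up 19.1 ± 1.29% with empagliflozin and 23.7 ± 1.91% in the OM group (SD, n = 3 each). Psmb9 RNA thus came close to the level of its constitutive counterpart in OM. For the other pairs most of the RNA was that of the constitutive gene in both groups. These are shares of RNA, and the subunits present in the assembled proteasome were not measured.

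**Figure D2:**
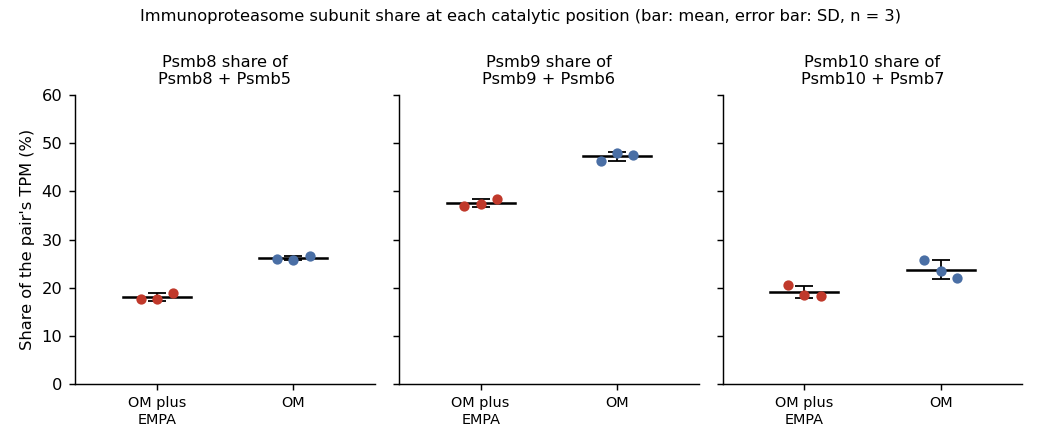
Share of the immunoproteasome subunit in the summed TPM of its catalytic position (vertical axis, percent) in every library, OM plus EMPA left and OM right, with the mean (bar) and SD (error bar, n = 3). The mean shares are 18.1% against 26.2% for Psmb8, 37.6% against 47.3% for Psmb9 and 19.1% against 23.7% for Psmb10.

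Psme1 and Psme2 encode the α and β subunits of PA28, a ring that caps the proteasome and opens its entry. Psme2 (ENSRNOG00000019246, chromosome 15, 29078500 to 29082946) had 143.49, 141.45 and 150.31 TPM in the OM plus EMPA group, against 207.49, 178.95 and 187.81 TPM in the OM group. It fell by 0.40 on the log2 scale (SE 0.06, n = 3 each, limma adjusted p = 0.0109). Psme1 (ENSRNOG00000019041, chromosome 15, 29068729 to 29071890) had 284.36, 282.61 and 279.55 TPM in the OM plus EMPA group, against 360.24, 310.1 and 349.89 TPM in the OM group. The OM plus EMPA libraries were nearly identical, and the spread lay in the OM group, with replicate 2 lowest. Its change of -0.27 ± 0.06 (SE, n = 3 each, limma adjusted p = 0.0384) was the smallest of the members, and its call was lost in 7 of 12 alternative settings. These were median-ratio scaling (adjusted p = 0.0865), a fit with no variance trend (0.0905), and leaving out OM plus EMPA replicate 1 (0.090), 2 (0.107) or 3 (0.0999), or from the OM group replicate 1 (0.104) or 3 (0.122). Psme3, which forms a separate nuclear cap, was not called, at -0.10 (95% interval -0.19 to -0.01, limma adjusted p = 0.189).

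Nlrc5 encodes the transactivator of class I genes and was the least abundant member. Nlrc5 (ENSRNOG00000048222, chromosome 19, 10477628 to 10562121) had 3.11, 2.66 and 2.85 TPM in the OM plus EMPA group, against 6.02, 4.61 and 4.75 TPM in the OM group. Its mean was 44.0% lower, the largest relative difference of TPM among the members, and its log2 fold change was -0.66 ± 0.12 (SE, n = 3 each, limma adjusted p = 0.0208), a scale that understates the change of genes at low TPM. The call for Nlrc5 was lost without OM plus EMPA replicate 2 (adjusted p = 0.0753) or 3 (0.0583) and without OM replicate 1 (0.0581) or 3 (0.0536). Tap1, Tap2, Tapbp, Psmb8, Psmb9 and Psme2 were called in all 12 alternative settings. The 1.5-fold threshold is not among these 12, and under it Tap2, Tapbp and Psme2 were not called.

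**Figure D3:**
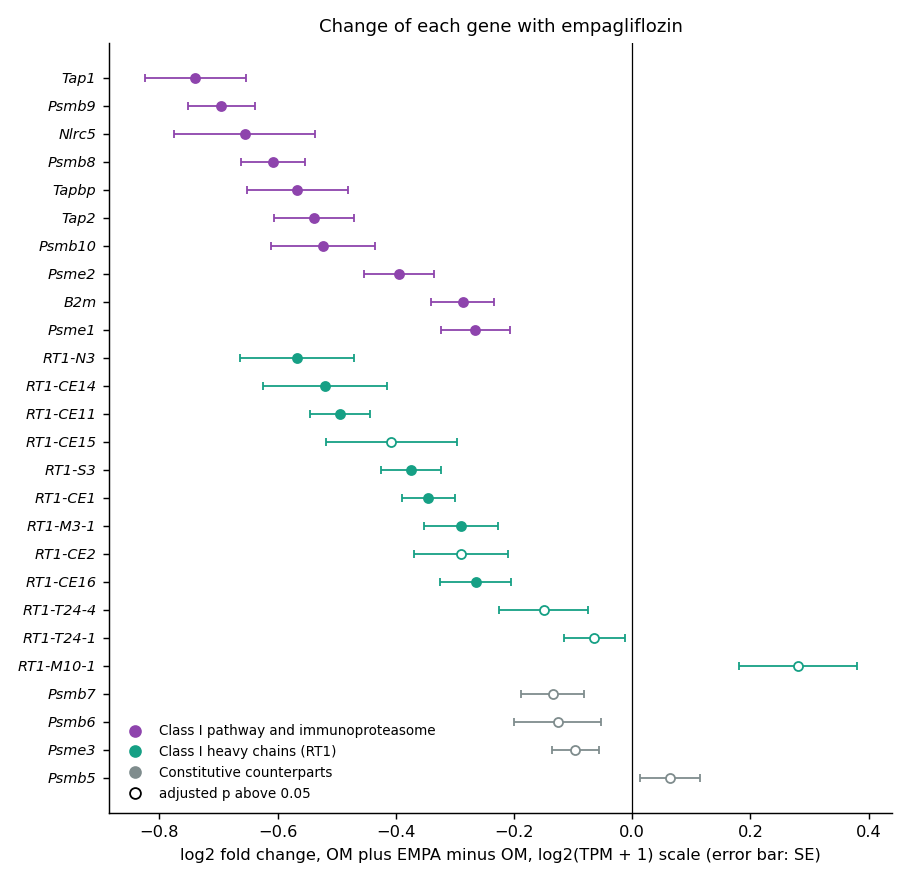
Log2 fold change, OM plus EMPA minus OM on the log2(TPM + 1) scale (horizontal axis), with SE, for the 10 members (purple), the tested class I heavy chains (green) and the constitutive counterparts (grey), where open symbols have an adjusted p above 0.05. The members run from -0.74 for Tap1 to -0.27 for Psme1, and no constitutive counterpart has a filled symbol.

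By TPM, which is per transcript length, the order of mean levels in the OM plus EMPA group was B2m, Psme1, Psme2, Psmb9, Tapbp, Tap1, Tap2, Psmb10, Psmb8 and Nlrc5. In that order the libraries of Psmb9 and Tapbp and of Tapbp and Tap1 overlapped with empagliflozin. In the OM group those of Tapbp and Tap1, of Tap2 and Psmb10 and of Psmb10 and Psmb8 overlapped. Within groups the members tended to be high or low in the same libraries. OM replicate 1 was the highest OM library for 9 of the members and OM replicate 2 the lowest for all 10, and OM plus EMPA replicate 2 was the lowest of its group for 7. The OM order was not particular to the members. Summed TPM of non-catalytic core proteasome subunits was 2621, 2378 and 2446 in OM replicates 1, 2 and 3, and of regulatory particle subunits 2844, 2705 and 2788. The smooth muscle marker sum was instead highest in OM replicate 2 (2158 TPM). The share of all genes with this order was not computed. The coefficient of variation was 0.863% (Psme1) to 9.44% (Tap1) in the OM plus EMPA group and 2.44% (B2m) to 15.2% (Nlrc5) in the OM group.

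The heavy chains that pair with β2-microglobulin are encoded in the rat by the RT1 class I genes, of which 13 were listed and 12 tested. Of these, 7 were called lower, 0 higher and 5 were not called, with a median log2 fold change of -0.32. Those called were RT1-N3 (-0.57), RT1-CE14 (-0.52), RT1-CE11 (-0.49), RT1-S3 (-0.37), RT1-CE1 (-0.34), RT1-M3-1 (-0.29) and RT1-CE16 (-0.27). Not called were RT1-CE15 (-0.41), RT1-CE2 (-0.29), RT1-T24-4 (-0.15), RT1-T24-1 (-0.06) and RT1-M10-1 (0.28). The model of RT1-M10-1 overlaps those of Trim39 and Rpp21 on the same strand, so reads there may be assigned to any of them. Rpp21 was at 19.6 TPM with empagliflozin and 12.5 TPM without, and Trim39 at 9.56 and 8.70 TPM. RT1-M1-4 was below the filter, and no gene with an RT1-A symbol was listed. RT1-CE11, RT1-S3 and RT1-CE1 were called in all 12 alternative settings, whereas the calls of RT1-CE16 and RT1-M3-1 were lost in 9 of them, that of RT1-CE14 in 5 and that of RT1-N3 in 2. With the 1.5-fold threshold, which is not among the 12, 0 heavy chains were called.

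Most of the heavy chain RNA was assigned to RT1-CE16, with 3959.26, 3781.3 and 4062.64 TPM in the OM plus EMPA group, against 4893.08, 4510.92 and 4781.79 TPM in the OM group (limma adjusted p = 0.0411). It made up 74.4% of the summed heavy chain TPM with empagliflozin and 73.6% without. Some RT1 class I genes are near-identical copies, and many models overlap on the same strand, as those of the RT1-CE genes do. The assignment of reads among them is thus uncertain, and the sum is the safer value. The sum was 5286 ± 158 TPM with empagliflozin, against 6421 ± 239 TPM without (SD, n = 3 each). Per B2m transcript it was 2.16 ± 0.05 with empagliflozin and 2.15 ± 0.03 in the OM group, with overlap, whereas Tap1 per B2m was 0.0312 ± 0.0021 with empagliflozin and 0.0429 ± 0.0031 in the OM group (SD, n = 3 each, ratios of TPM). These ratios were formed after the values were seen and carry no test. Without OM plus EMPA replicate 1 only 3 heavy chains were called lower. Leaving out OM plus EMPA replicate 2, OM plus EMPA replicate 3, OM replicate 1 or OM replicate 3 left 4.

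A further 8 genes without a named RT1 symbol are described in the authors' table as class I histocompatibility antigens, a set found after the values were seen. Of the 7 tested, 4 were lower and 0 higher, with a median of -0.36. They added 1232 ± 77.3 TPM with empagliflozin, against 1606 ± 122 TPM without (SD, n = 3 each). Counted in, the heavy chain sum per B2m was 2.66 with empagliflozin and 2.68 in the OM group.

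Tap2, Psmb8, Tap1, Psmb9 and Tapbp lie in the MHC on chromosome 20, in the segment from RT1-Bb to Tapbp (4596559 to 4966181 in the authors' table). All 5 were lower, with a median log2 fold change of -0.61. The same segment held 21 other listed genes, of which 18 were tested, 3 were lower and 0 higher, with a median of -0.16. The 3 had no symbol, and 2 of them were among the class I antigens described above. Without the class I antigens, 1 of 14 other genes was lower and the median was -0.09. Brd2, a chromatin reader between the members (-0.15), Rxrb, a nuclear receptor (-0.08), and Ring1, a Polycomb protein (-0.08), were not called, and neither were the class II chaperone genes RT1-DMa (0.01) and RT1-DMb (-0.22). Brd2, Rxrb and Ring1 were picked after their values were seen.

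**Figure D4:**
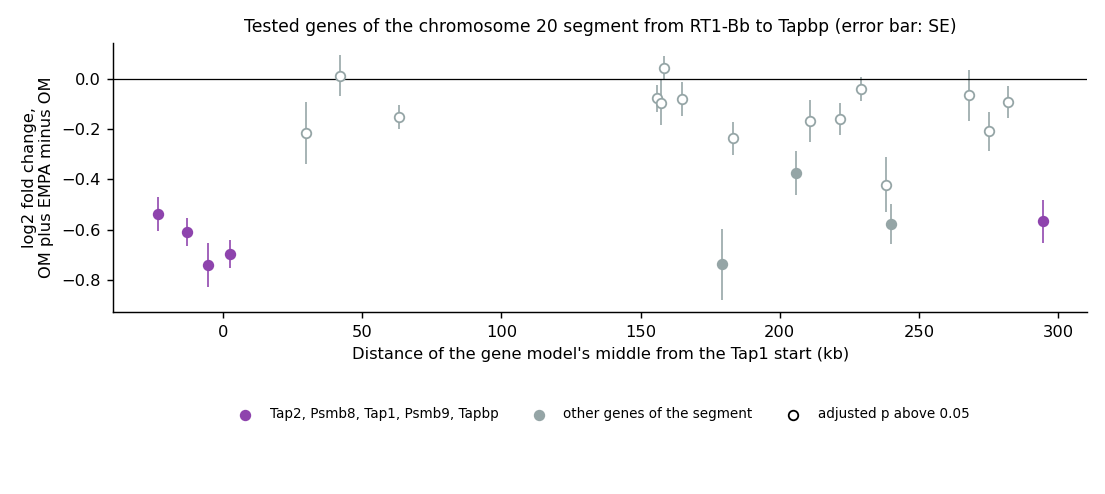
Log2 fold change with SE (vertical axis, OM plus EMPA minus OM) of the tested genes in the chromosome 20 segment from RT1-Bb to Tapbp, by distance of the gene model's middle from the Tap1 start (horizontal axis, kb). The 5 members (purple) lie between -0.74 and -0.54, and of the 18 other genes (grey) 3 have filled symbols, which mark an adjusted p of at most 0.05.

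Of 16 tested genes of peptide loading and trimming, which include the chaperone Calr (-0.07), the disulfide isomerase Pdia3 (0.02) and the peptide-trimming aminopeptidase Erap1 (-0.06), 0 were called in limma in either direction (1 at an unadjusted p under 0.05), and the median was -0.01. The named genes Calr, Pdia3 and Erap1 were chosen after their values were seen. Of the 33 tested constitutive subunits of the core and regulatory particles of the proteasome, 1 was lower (Psmd14, a deubiquitinase of the regulatory particle, -0.19, limma adjusted p = 0.0431) and 0 higher. With the replicate number as a block in the fit, 7 of the 33 were called. The Psmd14 call was lost in 8 of 12 alternative settings, with adjusted p of up to 0.134. Small negative values were nevertheless common among these subunits, as 32 of 33 were negative, against 65.1% of all tested genes. In limma 22 of them were lower at an unadjusted p under 0.05, a share that was not computed over all tested genes. The median of the 33 subunits was -0.13, and -0.07 under median-ratio scaling, against -0.50 for the members under the same scaling. Among the 8 other activators, inhibitors and assembly factors, Psmf1, a proteasome inhibitor, was lower (-0.38, limma adjusted p = 0.0122), a call lost without OM plus EMPA replicate 2 (adjusted p = 0.051). Of 13 class II genes 6 were listed and 3 tested (RT1-DMa, RT1-DMb and Ifi30), and of 9 class I-like genes outside the RT1 region 5 were listed and tested. Of the tested genes of both lists, 0 were called in limma (also 0 at an unadjusted p under 0.05). RT1-Ba, RT1-Da, RT1-Db1 and Cd74 were among the class II genes not listed and RT1-Bb was below the filter, so most of the class II pathway could not be tested. Whether the genes not listed were unexpressed or only lacked a symbol is not known. Ciita, the class II counterpart of Nlrc5, was below the filter, with 0.373 ± 0.123 TPM in the OM plus EMPA group against 0.590 ± 0.154 TPM in the OM group (SD, n = 3 each).

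**Figure D5:**
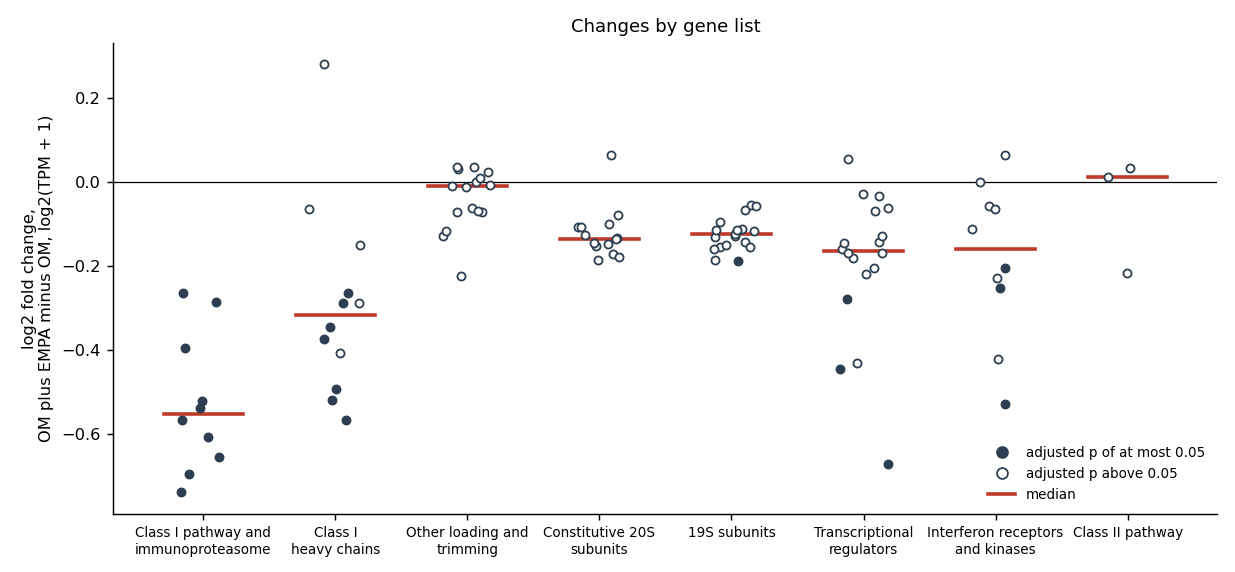
Log2 fold change of every tested gene (points, vertical axis, OM plus EMPA minus OM, sideways spread arbitrary) in the members and 7 related lists, with list medians (red bars), with filled points for adjusted p values up to 0.05. The medians are -0.55 for the members, -0.32 for the heavy chains and -0.01 for other loading and trimming genes.

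The factors that act on class I promoters were examined next. Of 18 tested transcriptional regulators, 3 were lower and 0 higher, with a median of -0.16. Irf1, an interferon-induced activator of many of these genes, had 27.65, 23.2 and 29.02 TPM in the OM plus EMPA group, against 48.64, 39.71 and 40.65 TPM in the OM group. The groups did not overlap, and the log2 fold change was -0.67 ± 0.10 (SE, n = 3 each, limma adjusted p = 0.0115). Irf7, a driver of type I interferon responses, averaged 777 ± 30.7 TPM with empagliflozin, against 1060 ± 81.3 TPM without (SD, n = 3 each, limma adjusted p = 0.00859). Stat2, a subunit of the complex that binds the ISRE, averaged 184.3 ± 9.5 TPM with empagliflozin, against 223.8 ± 5.4 TPM without (SD, n = 3 each, limma adjusted p = 0.0165). Irf9, another subunit of that complex, had -0.16 (adjusted p = 0.113) and Rfx5, a partner of Nlrc5, -0.17 (0.157), and neither was called. The Stat2 call was lost with no variance trend (adjusted p = 0.0552) and without OM plus EMPA replicate 1 (0.0583), OM plus EMPA replicate 2 (0.0568), OM replicate 1 (0.0569) or OM replicate 3 (0.0575).

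Of 10 tested interferon receptor and kinase genes, 3 were lower and 0 higher, with a median of -0.16. Jak2, a kinase of the interferon-γ receptor, had 45.49, 47.02 and 50.76 TPM in the OM plus EMPA group, against 65.15, 71.67 and 71.27 TPM in the OM group, a change of -0.53 ± 0.06 (SE, n = 3 each, limma adjusted p = 0.00451). Ifngr2 (-0.25, limma adjusted p = 0.0356) and Ifnar2 (-0.21, 0.0485), subunits of the receptors for interferon-γ and type I interferon, were called by a narrow margin. The call of Ifnar2 was lost when any 1 library was left out and that of Ifngr2 likewise, with adjusted p of 0.101 to 0.142 for Ifnar2 and of 0.0593 to 0.111 for Ifngr2. Both calls were also lost under median-ratio scaling (adjusted p = 0.144 for Ifnar2 and 0.0701 for Ifngr2) and with no variance trend (0.0695 and 0.0551), and that of Ifnar2 without mitochondrially encoded genes (0.0891) and with no filter on low values (0.0534). Jak1, which serves the same receptors, was not called (0.06). Ifng, Ifnb1, Ifna1 and Ifna4, which encode interferons, were not listed.

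The 5 genes outside these lists whose log2(TPM + 1) followed the mean standardised profile of the members most closely over the 6 libraries were Znfx1, Igtp, Mitd1, Ifit3 and Gbp7, with Pearson's r of 0.998 to 0.999. The 6 points include the step between the groups and share their scaling, so this is a description without a test. Gbp7, a guanylate-binding GTPase, averaged 55.7 ± 3.95 TPM in the OM plus EMPA group, against 135.6 ± 18.9 TPM in the OM group (SD, n = 3 each). Igtp, an immunity-related GTPase, averaged 120.1 ± 6.9 TPM in the OM plus EMPA group, against 213.7 ± 21.2 TPM in the OM group. Ifit3, an RNA-response protein induced by interferon, averaged 257.0 ± 21.6 TPM in the OM plus EMPA group, against 545.3 ± 73.5 TPM in the OM group. Each member followed the mean of the other 9 with r of 0.945 (Psme1) to 0.993 (Psmb9).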

How the data were processed

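RNA of 6 samples was sequenced. According to the submitters' processing notes the tools included HISAT2 2.0.5, RSEM and fastp, with no role given, and no source used here names the genome build of the table. The deposited table holds the TPM of each sample for 13526 genes, estimated by the authors, and also the authors' log2 fold changes, p-values and adjusted p-values, which were not used. A second deposited table holds a subset of the same genes with identical values and was not used. TPM keep no record of depth, so no precision by depth can be given. Gene symbols are those of the table, where 11889 of the 13526 genes had one. A gene not listed by symbol may thus be missing or present without a symbol. Expression was compared with limma 3.58.1 in R 4.3.3 (moderated test with variance trend, group as the only term) on log2(TPM + 1) of the genes whose mean reached 1 TPM, with Benjamini-Hochberg adjustment over all 12564 tested genes. Ratios of catalytic subunits were compared by exact permutation tests over samples. Motif matches were searched in RefSeq promoters on GRCr8. Summaries, permutation tests and plots were made in Python 3.11.15 (scipy 1.17.1, numpy 2.4.6, matplotlib 3.10.9, pandas 2.3.3), and the fit was checked on simulated data.

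The members and gene lists were chosen with earlier results of these data known. The text names all members, all tested class I heavy chains, the constitutive counterparts, Irf1, Irf9 and Rfx5, up to 4 called genes of each other list with the smallest p, and the 5 genes most like the members. Other genes are named as chosen after their values were seen, Cd68 and Ciita included. Alternatives were a pseudocount of 0.1, no filter, median-ratio scaling, scaling without mitochondrially encoded genes, no variance trend, a 1.5-fold threshold, the replicate number as a block and each library left out in turn. Where single genes are followed over 12 alternative settings, the 1.5-fold threshold is not counted.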

Additional observations from a re-analysis of the deposited data

How the results depend on the processing

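The fold changes of all 10 members and the 3 subunit ratios were negative in every alternative setting run. Because their libraries did not overlap between the groups, leaving out 1 library could not change a sign. Neither could the pseudocount, the filter, the variance trend or the block. Only rescaling by median ratios or without mitochondrially encoded genes could have changed it for members, and no setting could for the ratios. Members called lower numbered 10 in the main comparison, 8 under median-ratio scaling, 9 with no variance trend, 4 with a threshold of 1.5-fold and 6 to 10 when 1 library was left out, the 6 being without OM plus EMPA replicate 2. Class I heavy chains called lower numbered 7, and 0 with a threshold of 1.5-fold and 3 to 5 when 1 library was left out. Genes of the 9 other pathway lists called in either direction numbered 8, and 5 under median-ratio scaling, 4 with no variance trend, 16 with a replicate block, 1 with a threshold of 1.5-fold and 3 to 7 when 1 library was left out. Over all tested genes 611 were lower and 259 higher. These counts were 381 and 390 under median-ratio scaling, 366 and 154 with no variance trend, 483 and 298 without mitochondrially encoded genes, and 245 to 438 lower and 80 to 216 higher when 1 library was left out, where fewer samples were fitted. With a threshold of 1.5-fold, 183 were lower. The causes of the other differences were not tested. The replicate numbers were not treated as pairing the samples, because the deviations of same-numbered samples correlated at 0.098, 0.162 and 0.058, although every sample correlated best with its own number. With the replicate number as a block, 951 genes were lower and 449 higher, and 10 members and 8 heavy chains were lower. Of the 33 constitutive proteasome subunits 7 were called, against 1 without the block. The log2 ratios stayed at -0.69, -0.57 and -0.40, which the block could not move because every number occurs in each group. Depth is unknown for TPM, so what counting error limits cannot be given.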
